A study of Homo sapiens with 3 samples.

Results

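MALAT1 (ENSG00000251562) and its antisense partner TALAM1 (ENSG00000289740) are long non-coding RNA genes on opposite strands of chromosome 11. They were followed region by region in libraries from 95D, an established human lung cancer cell line of wild-type genotype per the labels. The symbol column is blank for both genes, so their rows were found by Ensembl identifier. They are 2 of the 5932 genes listed and hold 6 of the 12730 regions of the block that sets the glucose-deficient beside the control library, and the same 6 of the 12727 regions of the glutamine-deficient block. The pair was chosen by its RPM (reads per library total, scaled as given below) in these same libraries, so its values are a description.

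The first library came from cells in glucose-free DMEM, the second from cells in glutamine-free DMEM, both with 10% dialyzed serum for 48 h, and the third from cells in control conditions for 48 h, 1 library each. Whether the control medium had dialyzed serum is not stated. Per the labels' protocols all libraries share the same capture: biotinylated full-length DAMER, a long non-coding RNA made in vitro, was the bait that RNA in the lysates could bind. Titles of the samples, though, call them RNA-Seq only, and the labels leave unsettled what the control library is. The bait is added RNA and not the cells' own, and the cultures are of 1 line.

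MALAT1 is an abundant RNA that stays in the nucleus, where it gathers in nuclear speckles, the sites that store splicing factors. Its 3′ end has no poly(A) tail. RNase P, whose RNA is RPPH1, cuts the primary transcript just before a tRNA-like small RNA called mascRNA, and RNase Z then cuts behind it. The new end of MALAT1 is held in a triple helix, in which U-rich stretches clamp an A-rich tract. TALAM1 is read from the other strand of the locus and has been described as helping the maturation of MALAT1.

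The 3′ end is printed because it sets MALAT1 apart from polyadenylated RNAs and because TALAM1 runs across it. The capitals mark the 3 runs of at least 8 bases that both 3′ ends share, which are, in order, TTTCTTTT in a U-rich stretch, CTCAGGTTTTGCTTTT, which holds the second U-rich stretch, and AAAAAGCAAAA in the A-rich tract. The letters are DNA letters of GENCODE release 29 transcripts, in GRCh38. The MALAT1 stretch is chr11:65505987-65506116 on the plus strand, and the mascRNA follows at chr11:65506117-65506173. The matching end of NEAT1, a long non-coding RNA of paraspeckles, is chr11:65445411-65445540, also plus. The TALAM1 line gives the same mascRNA bases as the minus strand reads them.
MALAT1 3′ end: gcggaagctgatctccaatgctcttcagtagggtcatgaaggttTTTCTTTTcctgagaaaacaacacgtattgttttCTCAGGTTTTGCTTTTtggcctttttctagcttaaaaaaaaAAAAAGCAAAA
NEAT1 3′ end: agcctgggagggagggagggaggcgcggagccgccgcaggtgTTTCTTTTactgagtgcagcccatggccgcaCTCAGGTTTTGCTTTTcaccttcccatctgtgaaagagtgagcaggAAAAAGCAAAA
MALAT1 mascRNA: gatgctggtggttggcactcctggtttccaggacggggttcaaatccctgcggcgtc
TALAM1 strand: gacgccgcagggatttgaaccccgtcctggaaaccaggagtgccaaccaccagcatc

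Of 200322 GENCODE transcripts of at least 130 bases, 1.60% hold TTTCTTTT in their last 130 bases and 0.0569% hold AAAAAGCAAAA. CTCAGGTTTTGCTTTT, and all 3 runs in this order, occur there in 1 transcript, the long NEAT1 transcript from which the runs were taken. On the opposite strand of the same windows the shares are 2.28% for TTTCTTTT and 0.0454% for AAAAAGCAAAA, and 0 transcripts hold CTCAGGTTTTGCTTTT. The MALAT1 stretch is not among those windows, because the annotated transcripts run on past the mascRNA. A match describes letters only.

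RefSeq places MALAT1 at chromosome 11, 65497738 to 65506516, plus strand (8779 bases), and TALAM1 at 65499312 to 65507432, minus strand (8121 bases). They overlap over 7205 bases, 82.1% of MALAT1 and 88.7% of TALAM1. All 6 regions are listed under both genes, with the same values. Whether reads were counted by strand was not given in the sources used here, so reads of MALAT1 and of TALAM1 cannot be told apart, and each region was counted once. Over the whole list 11.9% of regions that name a gene are listed under 2 or more genes.

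**Figure D1:**
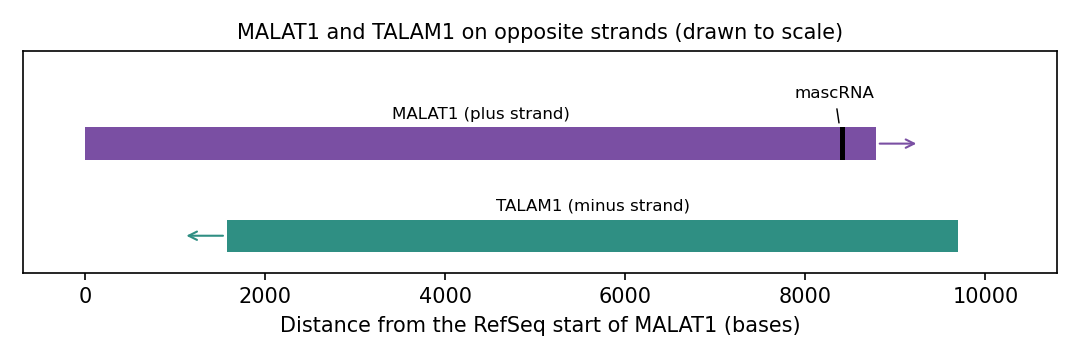
Map of MALAT1 (purple, plus strand) and TALAM1 (green, minus strand), with distance from the RefSeq start of MALAT1 in bases on the x axis. The genes overlap over 7205 bases, and the mascRNA (black) lies near the 3′ end of MALAT1, inside that overlap.

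The regions carry no coordinates in the deposited tables, so where each lies within the locus, and how long it is, is not known. They are numbered here from 1 to 6 by their control value. Values are in RPM, reads scaled to a library total of 1e6, and move in fixed steps that give back whole or 0.5 fragments. A fragment is taken here to be a read pair, which the sources used here do not state. The totals came to 18775817 fragments in the glucose-deficient, 18301611 in the glutamine-deficient and 3781862 in the control library. In the same order, 0 fragments leave room for up to 0.160, 0.164 and 0.793 RPM. Such limits for 0 fragments here and below are those of 3 fragments and lie below the upper end of the exact interval. Each deposited value also holds an offset of 0.5 fragment per region, so a region with 0 fragments is listed at 0.0266 RPM under glucose and at 0.0273 RPM under glutamine deprivation. All intervals are 95% intervals and cover counting error only, not variation between cultures. Copies made by PCR are not independent molecules, so the intervals may be too narrow even for counting error. No condition has a second library, so p-values are not given and nothing here was checked by replication. Of the markers of the cell type, 1 of 6 epithelial genes (KRT8) and 1 of 4 mesenchymal genes (VIM) were listed, at 6.48 and 77.7 RPM in the control, and 0 of 4 lung-lineage, 4 leukocyte, 4 fibroblast, 3 endothelial and 3 erythroid genes.

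MALAT1 and TALAM1 together stood at 1.38 RPM (23 fragments) under glucose deprivation, at 0.164 RPM (0 fragments) under glutamine deprivation and at 5570 RPM (21061 fragments) in the control. Without the offset these levels are 1.22 RPM (0.777 to 1.84), 0 RPM (limit of 3 fragments 0.164) and 5569 RPM (5494 to 5645). The control level is far above both others. In such bulk samples fewer cells with an RNA and less of it per cell cannot be told apart, nor can less RNA be told from less capture by the bait.

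The first comparison sets the glucose-deficient library beside the control library. What the control library is stays unsettled, so a difference of nutrient and one of library kind cannot be told apart here. On the log2(RPM + 1) scale all 6 regions were lower under glucose deprivation, against a background of 99.9% of 12728 regions at least 2-fold lower and 0.0629% at least 2-fold higher. The count therefore says nothing particular about MALAT1. The median log2 difference of the 6 regions was −8.67, between −11.16 and −7.13, beside a median of −3.12 over all tested regions. With so few fragments left, each difference is set mostly by the control level of the region.

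Region 1 stood at 0.506 RPM (9 fragments) under glucose deprivation, at 0.0273 RPM (0 fragments) under glutamine deprivation and at 3434 RPM (12985.5 fragments) in the control. By fragments per library total, without the offset, it was 7163-fold lower with glucose deprivation (3772 to 15669), and all folds below are of this kind. Region 2 stood at 0.559 RPM (10 fragments), 0.0273 RPM (0 fragments) and 913 RPM (3450.5 fragments) in the same order, and was 1713-fold lower (930.4 to 3576). So region 1, far above region 2 in the control, kept about as many fragments as region 2 when glucose was absent.

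The other 4 regions kept few fragments. Region 3 had 1 fragment in the glucose-deficient and 2105 in the control library (0.0799 and 557 RPM), 10451-fold lower with an interval of 1874 to 412974. Region 4 had 2 fragments against 1367 (0.133 and 362 RPM), 3393-fold lower (937.6 to 28048). Region 5 had 1 fragment against 612.5 (0.0799 and 162 RPM), 3041-fold lower (543.7 to 120302). Region 6 had 0 fragments against 540.5 (0.0266 and 143 RPM), at least 894-fold lower by the limit of 3 fragments. With so few fragments these 4 regions cannot be ranked by their fold. Of the 87 listed regions with at least the control level of region 6, 37 had 0 fragments in the glucose-deficient library, and region 6 was the MALAT1 region among them.

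**Figure D2:**
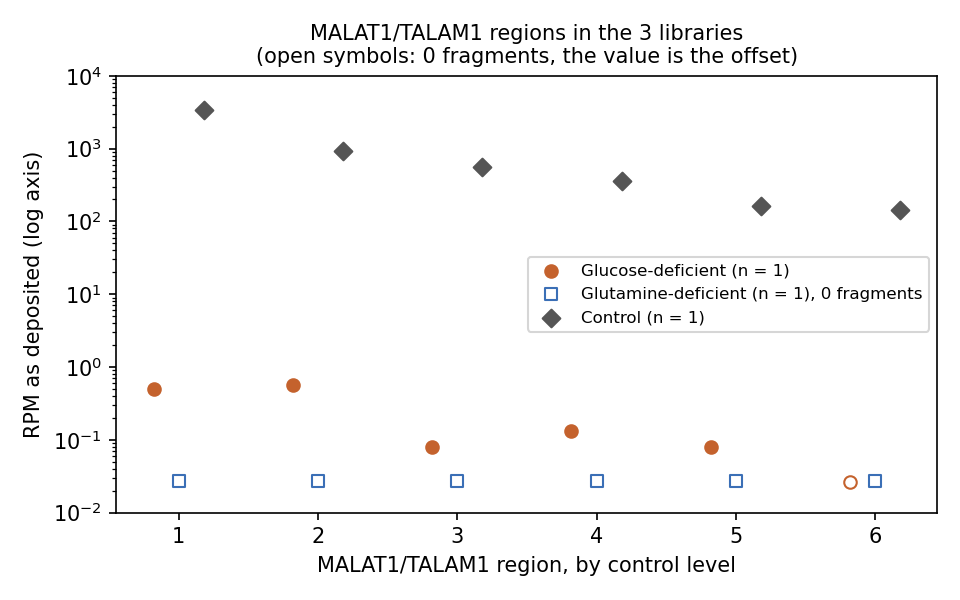
RPM as deposited (log axis) of MALAT1/TALAM1 regions 1 to 6 in the glucose-deficient (circles), glutamine-deficient (squares) and control (diamonds) library, 1 library each; open symbols mark 0 fragments, where the value is the offset. Control values run between 143 and 3434 RPM, glucose-deficient values stay at or below 0.559 RPM, and all 6 glutamine-deficient values sit at 0.0273 RPM.

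The split of the fragments over the regions was compared between the glucose-deficient and the control library. Region 1 held 39.1% of the MALAT1/TALAM1 fragments in the glucose-deficient library (19.7% to 61.5%, exact Clopper-Pearson) and 61.7% in the control library (61.0% to 62.3%). Region 2 held 43.5% in the glucose-deficient library (23.2% to 65.5%) and 16.4% in the control library (15.9% to 16.9%). The ratio of region 1 to region 2 was 0.900 (0.324 to 2.46) in the glucose-deficient and 3.76 (3.62 to 3.91) in the control library, and these intervals do not overlap. Both libraries had most of their fragments in these regions, 82.6% and 78.0%. The ratio is within each library, so it does not depend on how the libraries are scaled. It rests on 19 fragments of 1 library, and regions 1 and 2 were singled out after their values were seen. Of the single shares, that of region 2 had intervals apart, while those of the other 5 regions, region 1 included, overlapped between the libraries.

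**Figure D3:**
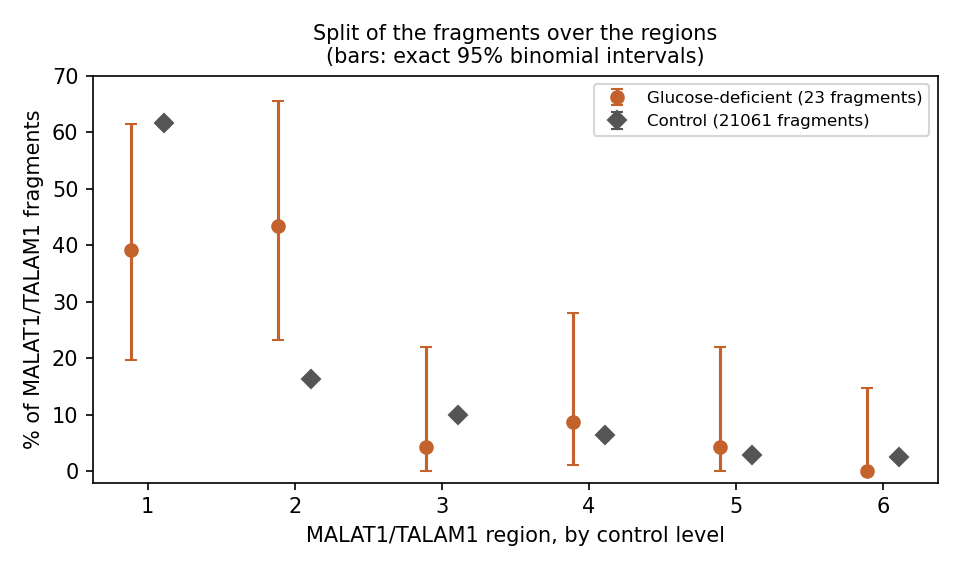
Share of the library's MALAT1/TALAM1 fragments in each region (y axis, percent), in the glucose-deficient (circles, 23 fragments) and control (diamonds, 21061 fragments) library, with exact 95% binomial intervals. Regions 1 and 2 hold 39.1% and 43.5% in the glucose-deficient library, with overlapping intervals. In the control library they hold 61.7% and 16.4%.

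The second comparison sets the glutamine-deficient library beside the control library, with the same limit. All 6 regions had 0 fragments in the glutamine-deficient library and were lower there, against a background of 100.0% of 12725 regions when rounded (12722 lower, and 3 or 0.0236% higher). Region 1 was at least 20947-fold lower and region 2 at least 5566-fold lower by the limit of 3 fragments. For regions 3 to 6 the bounds were 3396-fold, 2205-fold, 988-fold and 872-fold, an order that is only that of their control levels. Of the 88 listed regions with at least the control level of region 6, 78 had 0 fragments in this library, so 6 of 6 MALAT1 regions at 0 does not stand out.

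Both deprived libraries were almost wholly ATF4, the transcription factor gene of the integrated stress response. Fragments outside ATF4 and its pseudogenes made up 0.0689% under glucose deprivation (12936 fragments), 0.0790% under glutamine deprivation (14450 fragments) and 99.97% in the control. RPM is scaled to all reads, so the RPM of other RNAs is set against a total that ATF4 fills. As a share of the fragments outside ATF4 and its pseudogenes, MALAT1 and TALAM1 held 0.178% under glucose deprivation (0.113% to 0.267%), 0% under glutamine deprivation and 0.557% in the control (0.550% to 0.565%). A count of 0 of 14450 fragments allows a share of up to 0.0208%. At the control share, 72.1 fragments would have been seen under glucose deprivation, where 23 were seen. Under glutamine deprivation 80.5 would have been seen, where 0 were. On this footing the share was lower than in the control library beyond counting error in both deprived libraries.

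A narrower total gives another answer. Regions listed in the tables held 8.95% of the outside fragments under glucose deprivation, 1.11% under glutamine deprivation and 22.7% in the control. Of the listed fragments outside ATF4, its pseudogenes and mitochondrial genes, MALAT1 and TALAM1 held 2.15% in the glucose-deficient library (1.37% to 3.21%) and 2.77% in the control library (2.73% to 2.80%), and these intervals overlap. In the glutamine-deficient library they held 0 of 61 such fragments, which allows a share of up to 4.92%, above the control share. At the control share 1.69 fragments would have been seen there. So a difference of MALAT1 from the other listed RNAs was not detectable at this depth in either deprived library. How regions came to be listed was not given in the sources used here. What the unlisted fragments are was not analysed here.

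**Figure D4:**
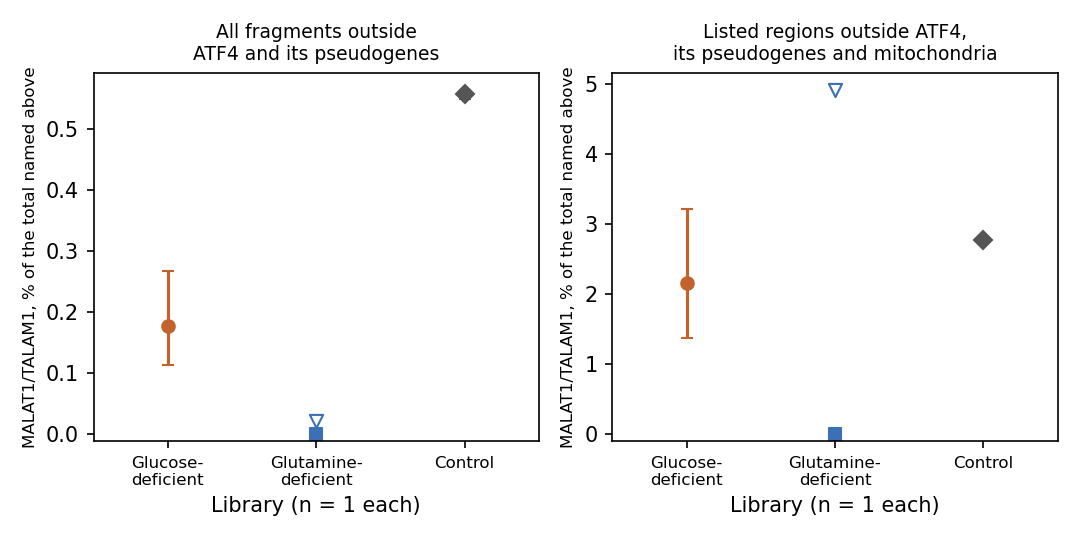
Share of MALAT1/TALAM1 fragments (y axis, percent) in the glucose-deficient, glutamine-deficient and control library, left of all fragments outside ATF4 and its pseudogenes, right of the listed fragments that are also not mitochondrial. Filled symbols with bars are shares with exact 95% binomial intervals, and open triangles are the limit that 0 fragments allow. On the left both deprived libraries lie below the control share of 0.557%, while on the right the limit for glutamine deprivation, 4.92%, lies above the control share of 2.77%.

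Expressed per 1000 control fragments, MALAT1 and TALAM1 kept 1.09 fragments in the glucose-deficient library (0.692 to 1.64). These counts are not scaled by library total, and the control library is the smallest. They compare RNAs within a deprived library and do not measure how much of an RNA remained. The other listed regions outside ATF4, its pseudogenes and mitochondria kept 1.41 (1.33 to 1.50). Mitochondrial regions kept 0.921 (0.740 to 1.13). Within the locus, region 1 kept 0.693 (0.317 to 1.32) and region 2 kept 2.90 (1.39 to 5.33). In the glutamine-deficient library MALAT1 and TALAM1 kept 0 per 1000, with a limit of 0.142 from 3 fragments, while the other listed regions kept 0.0823 (0.0630 to 0.106) and mitochondrial regions 1.02 (0.832 to 1.25). The interval of MALAT1 and TALAM1 thus overlapped those of mitochondrial and other listed regions under glucose deprivation. Under glutamine deprivation its limit lay below the interval of the mitochondrial regions and above that of the other listed regions.

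The third comparison puts glucose beside glutamine deprivation, with 23 fragments of MALAT1 and TALAM1 against 0. The level was at least 7.47-fold higher with glucose deprivation by the limit of 3 fragments, and the lower end of the exact interval was 5.60-fold. On the log2(RPM + 1) scale the difference was 1.03, just past 2-fold. Only 16 genes reached 1 RPM in one of the deprived libraries, and 18.8% of them (3) were called higher under glucose deprivation. Of these, 2 are MALAT1 and TALAM1, 1 set of fragments under 2 names, so the pair is part of its own background. It passed the filter only through the glucose-deficient library, at 1.38 RPM against 0.164 RPM, so the call adds no support to the difference. With a pseudocount of 5 RPM the difference was 0.31 and 0 genes were called. It also fell short of 2-fold without region 1 (0.73), region 2 (0.68) or region 4 (0.99). No single MALAT1 region reached 1 RPM in a deprived library, so 0 of 6 were tested; of the 9 regions that did, 33.3% were called higher and 11.1% lower. The other listed regions outside ATF4, its pseudogenes and mitochondria kept 1.41 per 1000 control fragments under glucose deprivation. Under glutamine deprivation they kept 0.0823, so they too were lower there. Mitochondrial regions were not, at 0.921 (0.740 to 1.13) with glucose and 1.02 (0.832 to 1.25) with glutamine deprivation.

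RPPH1, the RNA of the enzyme that cuts the MALAT1 3′ end, stood at 0.666 RPM (12 fragments) under glucose deprivation, 0.0273 RPM (0 fragments) under glutamine deprivation and 2473 RPM (9353 fragments) in the control. It was 3870-fold lower with glucose deprivation (2214 to 7492). It kept 1.28 fragments per 1000 control fragments there (0.663 to 2.24), an interval that holds the value of MALAT1. RPPH1 shares its region with ENSG00000259001, an identifier without a symbol. NEAT1, the neighbour gene with the like 3′ end, stood at 1.09 RPM (13 fragments), 0.410 RPM (0 fragments) and 1496 RPM (5649.5 fragments) over 15 regions. It was 2158-fold lower with glucose deprivation (1261 to 4055) and kept 2.30 fragments per 1000 (1.23 to 3.93). Its RPM values hold the offset summed over these regions, which is all of the 0.410 RPM. Under glucose deprivation 7SK, which restrains transcription elongation, kept 0.0181 per 1000 (0.000458 to 0.101), and RMRP, the RNA of RNase MRP, kept 0.141 (0.00358 to 0.788). Both had 1 fragment left. The interval of 7SK lies below that of MALAT1, while that of RMRP overlaps it; copies of 7SK in the genome make its count uncertain.

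**Figure D5:**
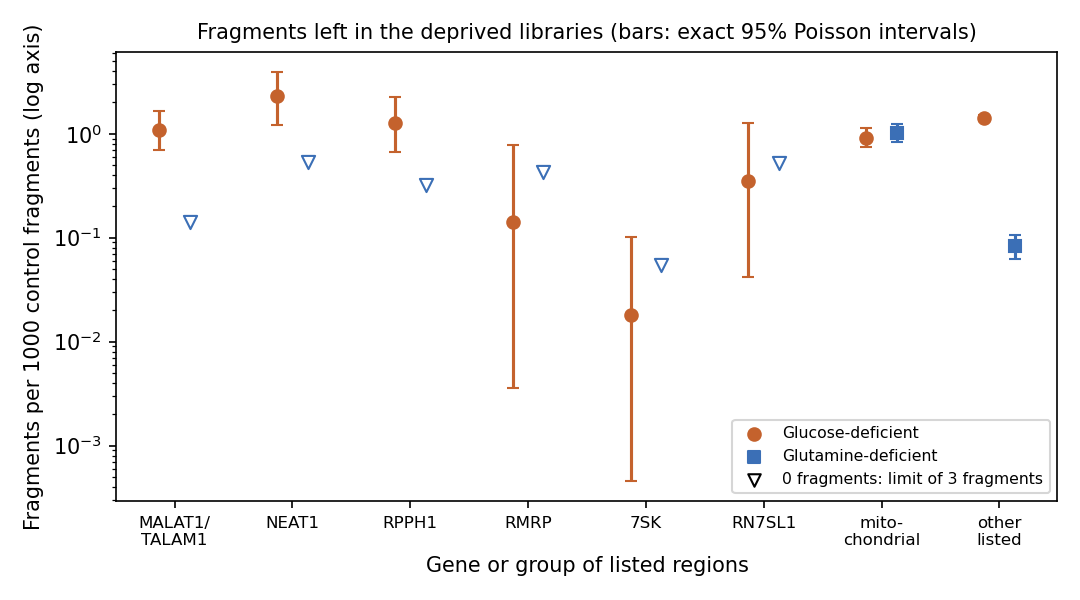
Fragments left per 1000 control fragments (log axis) in the glucose-deficient (circles) and glutamine-deficient (squares) library for MALAT1/TALAM1, other RNAs and groups of listed regions, with exact 95% Poisson intervals. Counts are not scaled by library total, and open triangles give the limit of 3 fragments where 0 were seen. MALAT1/TALAM1 at 1.09 has an interval that overlaps that of the other listed regions at 1.41 in the glucose-deficient library, and mitochondrial regions at 1.02 stand out among the glutamine-deficient values.

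The genes whose pattern over the 3 libraries is most like that of MALAT1 were taken by the smallest Euclidean distance of log2(RPM + 1), outside genes that share its regions. MT-ND4 and MT-ND4L, subunits of respiratory complex I that share 1 region, were closest at a distance of 0.80, then MT-CO2 at 0.83 and MT-CO1 at 1.01, both subunits of cytochrome oxidase. RPPH1 and ENSG00000259001 followed at 1.29. MT-ND4 stood at 1.15, 0.984 and 4991 RPM in the glucose-deficient, glutamine-deficient and control library. Its 17.5 fragments with glutamine deprivation, against 0 for MALAT1, are the main difference in pattern. Over 3 libraries this likeness is a description.

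Genes picked for a shared function, RNA class or position with MALAT1 were described as lists. Beside them, 99.9% of genes were at least 2-fold lower in each deprived library (0.118% higher under glucose and 0.0675% under glutamine deprivation). Median log2 differences over all genes were −3.92 with glucose and −3.93 with glutamine deprivation. Of 21 nuclear speckle and splicing genes 20 were listed and lower in both deprived libraries, with a median of −6.24 in each. Under glucose deprivation 6 of the 20 had a fragment, and under glutamine deprivation 0. Over all genes tested, 90.9% were at 0 fragments under glucose and 99.2% under glutamine deprivation. With so few fragments left, the medians of this list and of the lists below are set mostly by the control levels of their genes. SRRM2, a scaffold protein of speckles, had 8 fragments in the glucose-deficient, 0 in the glutamine-deficient and 2235.5 in the control library, 1387-fold lower with glucose deprivation (702.9 to 3217). PRPF8, a core splicing factor, had 2, 0 and 727.5 fragments, SRSF11, an SR-type splicing factor, 0, 0 and 643, and PNN, a speckle protein, 2, 0 and 519.5. SON, the other speckle scaffold, had 0, 0 and 491.5 fragments.

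All 8 paraspeckle genes were listed and lower in both, with medians of −6.64 with glucose and −6.67 with glutamine deprivation. NONO, SFPQ and HNRNPK, RNA-binding proteins of paraspeckles, had 1, 0 and 1 fragments under glucose deprivation, 0 each under glutamine deprivation, and 511.5, 462 and 391 in the control library.

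Of 23 genes for MALAT1 processing, end protection and m6A, 11 were listed and lower in both, with medians of −5.17 and −5.29. Beside RPPH1 they include HNRNPC, which binds MALAT1 at an m6A-dependent site, with 3, 0 and 815 fragments in the glucose-deficient, glutamine-deficient and control library. RBMX, an RNA-binding protein of the HNRNP family, had 0, 0 and 460.5, YTHDC1, the nuclear m6A reader, 0, 0 and 193.5, and DIS3, an exosome nuclease, 0, 0 and 188.5. Of 20 other long non-coding RNAs 11 were listed and lower, with a median of −5.14 in each comparison. NORAD, which binds Pumilio proteins, had 3, 1 and 297 fragments in the same libraries. SNHG1, a snoRNA host gene, had 0, 0 and 170.5, TUG1 had 0, 0 and 139, and TERC, the RNA template of telomerase, 0, 0 and 75. Of 17 neighbour genes on chromosome 11, 4 were listed and lower, with medians of −4.36 and −4.35: NEAT1, RELA, an NF-kB subunit, POLA2, a DNA polymerase alpha subunit, and DPF2, a chromatin remodelling subunit. RELA, POLA2 and DPF2 had 0 fragments in both deprived libraries and 101.5, 63 and 54.5 in the control library. For genes at 0 fragments the data give a bound set by the control level and no level of their own.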

How the data were processed

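RNA was captured with DAMER bait from 95D cells and sequenced as paired reads of 150 nt after ribosomal RNA depletion, per the labels' protocols. Alignment was to hg38 with HISAT2 2.0.5, per the submitters' processing notes. How regions were called and counted was not given in the sources used here. Deposited values are RPM per listed region, per the file headers, set in 2 blocks that share the control column. For the glutamine-deficient library, whose description points to the glucose column, the mapping follows its own file, which equals the glutamine column.

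Both member genes and all lists were chosen with earlier results of these data known. Neighbouring rows with equal values under different genes were counted as 1 region. Each value was divided by the step of its library, the 0.5 fragment offset was taken off, and the rest was rounded to 0.5 fragment steps. Values below 1000 RPM lay at most 0.00366 fragment off a step. Whole fragments made up 99.97%, 99.98% and 63.5% of the values of the glucose-deficient, glutamine-deficient and control library, the rest being 0.5 fragment off. A value of 0 fragments counts as whole, and 95.4% and 99.7% of tested regions were at 0 in the glucose-deficient and glutamine-deficient library. The shares of these libraries are therefore little check on the recovered fragments. Regions or genes that reached 1 RPM in a compared library were called at a 2-fold difference of log2(RPM + 1), a scale that understates differences of low values. Folds are of fragments per library total without the offset, and their intervals are exact conditional binomial intervals of fragments. Shares have Clopper-Pearson and kept fragments exact Poisson intervals. Named genes are the members, up to 5 per list by control RPM, and the 5 nearest in pattern, with their tie. X-inactivation genes were passed over in that rule, and 7SK and RMRP were chosen after their values were seen. One gene that this rule would name is not reported here. Alternative scalings were TMM from edgeR 4.0.16 and size factors from DESeq2 1.42.0. The steps were tested on simulated data. Software was R 4.3.3 and Python 3.11.15 with scipy 1.17.1, numpy 2.4.6, matplotlib 3.10.9 and pandas 2.3.3.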

Additional observations from a re-analysis of the deposited data

How the results depend on the processing

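No paired analysis was possible because each condition has 1 library. The member ratios kept their direction under every alternative run, while their size follows the scaling. For glucose-deficient against control, glutamine-deficient against control, and glucose-deficient against glutamine-deficient, in this order, the log2 differences were −11.19, −12.22 and 1.03 as reported. They were −11.87, −14.37 and 2.49 with a pseudocount of 0.1 RPM, and −9.77, −10.08 and 0.31 with 5 RPM. On fragments with 0.5 added they were −12.12, −17.64 and 5.52 by library totals, −1.62, −7.33 and 5.71 without ATF4 and its pseudogenes in the totals, and −1.68, −7.41 and 5.73 without mitochondrial and the 10 most abundant genes. They were −2.51, −7.59 and 5.07 with TMM and −1.07, −6.34 and 5.27 with median-of-ratios scaling, whose factors rest on 23 genes. With every listed row summed they were −11.53, −13.03 and 1.51. By listed totals, an alternative chosen after seeing the data, they were −0.33, −1.75 and 1.42. Without region 1 the first 2 were −10.15 and −10.88; leaving out any other region moved neither beyond counting error. The third stayed within counting error without each region, but lost its 2-fold call at 0.73 without region 1, 0.68 without region 2 and 0.99 without region 4. With 0 fragments in the glutamine-deficient library, values that involve it rest on the added constant. Shares by listed totals are 2.15% for glucose-deficient and 2.77% for control, as given above. No region is listed under one gene alone, so that alternative gave no value.

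Genes higher and lower against control numbered 7 and 5924 for glucose-deficient and 4 and 5924 for glutamine-deficient. At 10 RPM or more the glucose-deficient numbers were 4 and 3756, and 3756 genes were lower for glutamine-deficient. Without ATF4 and its pseudogenes in the totals and with 0.5 fragment added they were 3701 and 354 for glucose-deficient and 3292 and 601 for glutamine-deficient; of those higher, 3386 and 3265 genes had 0 fragments, so their call comes from the added 0.5. Between the deprived libraries 3 genes were higher as reported, 0 with a pseudocount of 5 RPM or at 10 RPM, and 6 without ATF4 and its pseudogenes. Regions gave 8 higher and 12720 lower for glucose-deficient against control, 5 higher with a pseudocount of 5 RPM, 4 and 4632 at 10 RPM, and 11200 and 127 without ATF4 and its pseudogenes. They gave 3 and 12722 for glutamine-deficient against control, 4631 lower at 10 RPM, and 10682 and 213 without ATF4 and its pseudogenes. Between the deprived libraries 3 regions were higher and 1 lower, and 0 were higher with a pseudocount of 5 RPM or at 10 RPM. Depth limits the deprived libraries: outside ATF4 and its pseudogenes they hold 12936 and 14450 fragments.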
